A study of Homo sapiens with 9 samples.

Results

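The genes described here are 9 known targets of the YAP-TEAD transcription complex in HepG2 cells after siRNA double knockdown of the nuclear receptors HNF4alpha and HNF4gamma. The members are CCN1, CCN2, ANKRD1, AMOTL1, AMOTL2, LATS2, AJUBA, AXL and CRIM1, chosen by symbol among the 13056 genes tested. They were represented by 22 of the 54675 probe sets of the array, of which 18 passed the filter on dim signals. Each gene was read from its brightest probe set with the others, where there were any, as a check. CCN2, ANKRD1 and AMOTL2 had 1 probe set each, and AXL had 1 of 2 above the filter, so these genes had no such check. HepG2 is an established hepatocellular carcinoma line. RNA was measured on 9 expression arrays in 3 groups of 3, named knockdown1, knockdown2 and control. Both knockdown groups carry the label of the same pair of target genes. What sets knockdown1 apart from knockdown2 is not stated in the labels, nor is the treatment of the control cells. Replicates are not described as separate cultures, so the p-values rest on a spread among arrays that may be technical only. All arrays are of 1 cell line.

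In the Hippo pathway, the kinases MST1 and MST2 (genes STK4 and STK3) activate the kinases LATS1 and LATS2, which phosphorylate the coactivators YAP and TAZ and hold them in the cytoplasm. Unphosphorylated YAP and TAZ enter the nucleus and bind TEAD transcription factors, which recognise a short core motif. In liver the pathway limits organ size, and its target genes include secreted matrix proteins and several inhibitors of YAP itself. HNF4alpha is a main regulator of hepatocyte gene expression.

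No probe set was assigned to HNF4A alone, so that target could not be checked. The scaled signal of HNF4G was 18.5 ± 4.66 in knockdown1, 31.6 ± 9.14 in knockdown2 and 46.0 ± 1.65 in control (mean ± SD, n = 3 arrays in each). HNF4G fell in knockdown1, with a log2 fold change of -1.28 (SE 0.28, limma adjusted p = 5.38e-04), and its change of -0.56 in knockdown2 did not pass the test (SE 0.28, limma adjusted p = 0.141). Its knockdown2 arrays, at 24.4 to 41.9, still lay below control, at 44.9 to 47.9, where 39.7% of all genes did not overlap. Over 20 alternative settings the knockdown2 change ran from -1.52 to -0.39. It stayed uncalled in 19 of them, and the lowest limma adjusted p was 0.0111. The knockdown2 arrays are named by their label, since HNF4A could not be checked and HNF4G did not pass in the main fit. Hepatocyte markers were bright in all arrays, with summed signals of 8 markers between 26458 and 38829. Markers of other lineages were mostly dim. The summed signal of 8 fibroblast and stellate cell markers lay between 120 and 185. Of 5 endothelial markers, CDH5, KDR and VWF were below the array median in all 9 arrays and TEK did not pass the filter, while PECAM1 had signals of 46.0 to 88.9. Of 4 leukocyte markers, PTPRC and CD3E were below the median in all 9 arrays, and CD14 and CSF1R passed the filter.

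TEAD proteins bind the core GGAATG, or CATTCC on the opposite strand, and the promoters of the members were searched for it because YAP reaches its target genes through TEAD. RefSeq promoter windows (GRCh38.p14, from 250 bases before to 50 bases after a start site) were matched for 7 of the 9 genes, giving 10 windows. CCN1 and CRIM1 were not matched. The core was present on either strand in 6 of the 10 windows and in 6 of the 7 genes, against 14.0% of all 35116 windows and 16.7% of all 27305 genes. The members were chosen as known YAP-TEAD targets, so this contrast is a description and no test of them. CCN2 held 3 copies, and 0.128% of all windows held 3 or more. ANKRD1 held 2, and 1.37% of all windows held 2 or more. The sequences below are read 5′ to 3′ on the strand of the gene, with the core in capitals. The whole upstream window is shown for the genes with several copies, and a short stretch for the others.
CCN2, chr6:131951373-131951622, minus strand: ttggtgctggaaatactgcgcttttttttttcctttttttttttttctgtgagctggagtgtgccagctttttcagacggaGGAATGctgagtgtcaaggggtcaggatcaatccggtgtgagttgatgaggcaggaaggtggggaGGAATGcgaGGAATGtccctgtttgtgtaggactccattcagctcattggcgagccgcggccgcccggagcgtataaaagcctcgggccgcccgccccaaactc
ANKRD1, chr10:90921088-90921337, minus strand: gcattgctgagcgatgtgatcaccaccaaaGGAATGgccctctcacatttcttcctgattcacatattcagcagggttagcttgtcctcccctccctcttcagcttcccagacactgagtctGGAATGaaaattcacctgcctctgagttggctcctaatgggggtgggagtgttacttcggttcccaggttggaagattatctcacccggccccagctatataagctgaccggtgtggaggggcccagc
AMOTL2, chr3:134374484-134374543, minus strand: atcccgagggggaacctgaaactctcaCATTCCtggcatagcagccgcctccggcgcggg
AJUBA, chr14:22976869-22976928, minus strand: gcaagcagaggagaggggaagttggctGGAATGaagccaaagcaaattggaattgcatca
AXL, chr19:41226516-41226575, plus strand: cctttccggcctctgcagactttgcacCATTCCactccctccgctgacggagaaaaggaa
LATS2, chr13:21061563-21061586, minus strand: gacgcccgtGGAATGccaacaatg
Counted from the start site, the copies began at -169, -104 and -95 in CCN2 and at -220 and -128 in ANKRD1. In AMOTL2, AJUBA and AXL the match lay in the window of the second of 2 annotated starts, at -69, -59 and -212. The LATS2 match, at 10, was inside the transcribed part, and the AMOTL1 window held none. For AP-1 the pattern TGANTCA was searched, which allows any base at its centre. It was found on either strand in ANKRD1 alone, as TGATTCA at -195, against 7.71% of all windows with any such match. This match did not overlap a TEAD core. The CArG box, bound by serum response factor, was in none of the 10 windows, against 1.29% of all windows. A match is a description of the letters and shows no binding.

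**Figure D1:**
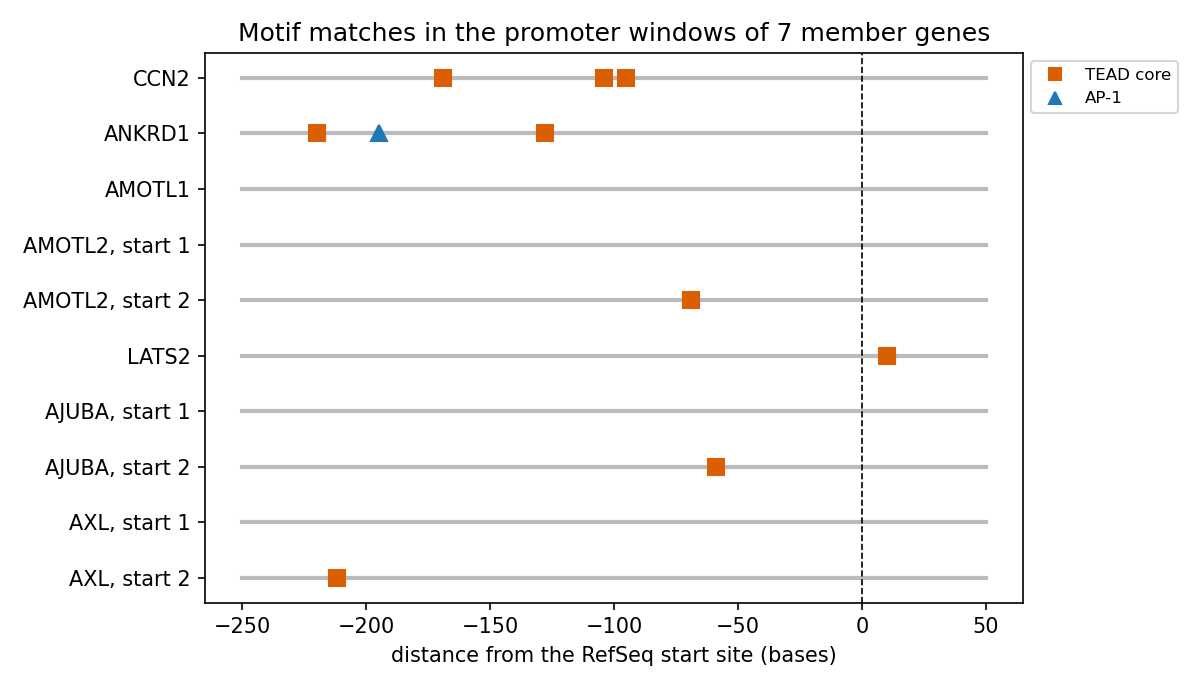
Positions of TEAD core (squares) and AP-1 pattern TGANTCA (triangle) matches in the 10 promoter windows of 7 genes, in bases from the RefSeq start site (dashed line). The 3 copies of CCN2 and 2 of ANKRD1 lie upstream of the start, and the LATS2 copy lies after it.

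The array signals follow, in units of the deposited MAS5 intensity after each array was scaled to a common median of 14.1. Fold changes are log2(signal + 1.41), where 1.41 is a pseudocount. A gene is said to have risen or fallen where the Benjamini-Hochberg adjusted p of limma, over all 13056 genes, was under 0.05. In such bulk RNA, fewer cells of a type and less RNA per cell cannot be told apart. Both knockdown comparisons use the same 3 control arrays.

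**Figure D2:**
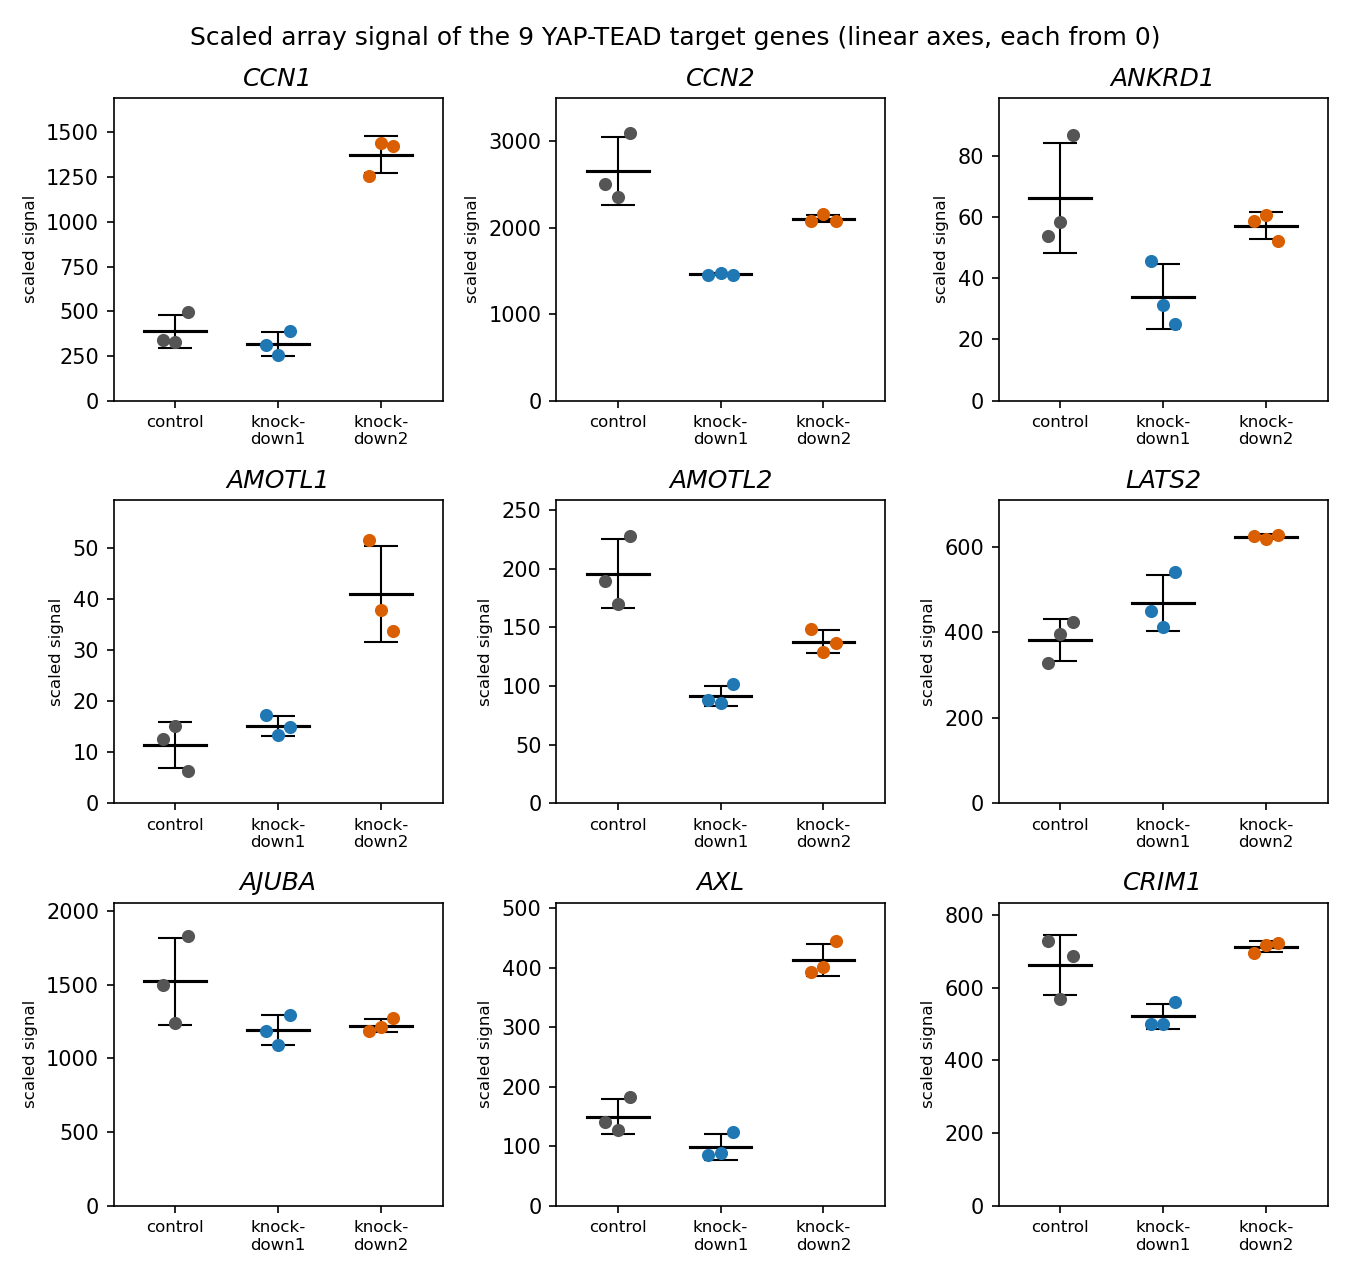
Scaled signal of the 9 genes on each array, on linear axes from 0, with the mean (long bar) and SD (short bars) of 3 arrays per group. CCN1, AXL, AMOTL1 and LATS2 are highest in knockdown2, and CCN2, ANKRD1, AMOTL2, AXL and CRIM1 are lowest in knockdown1.

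CCN1 and CCN2 encode secreted matricellular proteins that bind integrins and are widely used readouts of YAP activity. The CCN1 signal was 309.8, 253.0 and 386.9 in knockdown1, 1256, 1442 and 1427 in knockdown2, and 338.0, 326.7 and 494.2 in control. The knockdown2 arrays were far above all others, and the knockdown1 and control arrays overlapped. CCN1 rose 3.61-fold in knockdown2 (log2 1.85, SE 0.17, 95% interval of the fold 2.84 to 4.58, limma adjusted p = 1.70e-09), the 78th largest rise among all genes. In knockdown1 the change was -0.28 and did not pass the test (limma adjusted p = 0.213, interval -0.63 to 0.06). It was -0.09 without control replicate 3, -0.13 without knockdown1 replicate 2 and -0.44 without knockdown1 replicate 3. Between the knockdowns, CCN1 was 4.38-fold lower in knockdown1 (log2 -2.13, SE 0.17, limma adjusted p = 1.06e-10). The second CCN1 probe set gave -0.26 for knockdown1, 1.79 for knockdown2 and -2.04 between the knockdowns.

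CCN2 moved differently. Its signal was 1450, 1475 and 1457 in knockdown1, 2079, 2153 and 2082 in knockdown2, and 2501, 2360 and 3100 in control. The 3 groups did not overlap, with knockdown1 lowest and control highest. CCN2 fell in knockdown1 (log2 -0.85, SE 0.13, limma adjusted p = 5.98e-06), and was also lower in knockdown1 than in knockdown2 (-0.53, SE 0.13, limma adjusted p = 0.00258). In knockdown2 the change of -0.32 missed the threshold (limma adjusted p = 0.0608), although with the values as deposited it passed (-0.36, limma adjusted p = 8.63e-04). It also passed without control replicate 2 (limma adjusted p = 0.0170) and without knockdown1 replicate 3 (limma adjusted p = 0.0387), and was -0.21 without control replicate 3 (limma adjusted p = 0.186). Within arrays, the log2 ratio of CCN1 to CCN2 was -2.22 ± 0.31 in knockdown1, -0.62 ± 0.10 in knockdown2 and -2.79 ± 0.13 in control (mean ± SD, n = 3), a measure that array scaling does not alter. It rose by 2.18 in knockdown2 and by 0.57 in knockdown1, and the exact two-sided permutation p was 0.1 for each, the smallest that 3 arrays against 3 allow.

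ANKRD1 encodes an ankyrin repeat protein of the nucleus and the sarcomere. Its signal was 45.6, 31.4 and 25.0 in knockdown1, 58.9, 60.7 and 52.4 in knockdown2, and 53.7, 58.4 and 86.9 in control. All knockdown1 arrays lay below all others, and knockdown2 overlapped control. ANKRD1 fell in knockdown1 (log2 -0.95, SE 0.23, limma adjusted p = 0.00173) and was lower there than in knockdown2 (-0.77, SE 0.23, limma adjusted p = 0.0122). The second of these calls held in 17 of the 20 alternatives run. It was lost, among others, without knockdown1 replicate 3 (-0.58, limma adjusted p = 0.0849). In knockdown2 against control the change was -0.18 (interval -0.65 to 0.29, limma adjusted p = 0.627), and it turned to 0.03 without control replicate 3.

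The next members act back on the pathway. AMOTL1 and AMOTL2 are angiomotin-like proteins that bind YAP and hold it at junctions. The AMOTL1 signal was 17.2, 13.4 and 14.8 in knockdown1, 51.6, 37.7 and 33.7 in knockdown2, and 12.5, 15.1 and 6.30 in control. All knockdown2 arrays were above the rest, while in the other groups the signal was near the array median of 14.1. AMOTL1 rose 3.45-fold in knockdown2 (log2 1.79, SE 0.37, limma adjusted p = 5.01e-04) and was lower in knockdown1 than in knockdown2 (-1.34, SE 0.37, limma adjusted p = 0.00729). The latter call was lost without knockdown2 replicate 1 (-1.17, limma adjusted p = 0.0683). In knockdown1 against control it was 0.45 (interval -0.32 to 1.21), and 0.12 without control replicate 3 or 0.67 without control replicate 2. With a pseudocount equal to the common median the knockdown2 rise was 1.12 and still passed. A dimmer AMOTL1 probe set above the filter gave 1.36 for knockdown2 and did not pass over all probe sets (limma adjusted p = 0.0997). Its signal was at most 11.8 in knockdown1, 14.9 in control and 28.9 in knockdown2. It passed the filter only with knockdown2 arrays, so its value is no support for the rise.

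Against control, AMOTL2 changed in the opposite direction to AMOTL1 in knockdown2. Its signal was 87.7, 85.6 and 101.4 in knockdown1, 148.4, 128.7 and 137.0 in knockdown2, and 189.9, 169.7 and 227.8 in control. The 3 groups did not overlap, in the same order as for CCN2. AMOTL2 fell in knockdown1 (log2 -1.08, SE 0.16, limma adjusted p = 4.24e-06). It also fell in knockdown2 (-0.49, SE 0.16, limma adjusted p = 0.0205), and was lower in knockdown1 than in knockdown2 (-0.59, SE 0.16, limma adjusted p = 0.00631). The knockdown2 call was lost without control replicate 1 (limma adjusted p = 0.0526), control replicate 3 (0.0653), knockdown2 replicate 2 (0.0970) or knockdown2 replicate 3 (0.0661).

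LATS2 is the kinase that phosphorylates YAP. Its signal was 449.6, 412.8 and 541.0 in knockdown1, 624.2, 618.0 and 628.7 in knockdown2, and 327.2, 396.0 and 423.1 in control. Knockdown2 was above both other groups, which overlapped each other. LATS2 rose 1.64-fold in knockdown2 (log2 0.71, SE 0.15, limma adjusted p = 4.66e-04), and a second probe set gave 0.72 (limma adjusted p = 0.00157 over all probe sets). A further, dim probe set was above the array median in the knockdown2 arrays only, so it passed the filter through the group where it is high, and its 1.58 is no support for the rise. In knockdown1 it was 0.29 (interval -0.01 to 0.59, limma adjusted p = 0.136), and with the values as deposited the rise passed (0.38, limma adjusted p = 0.00741), as it did without control replicate 3 (0.37, limma adjusted p = 0.0396). It was 0.18 without control replicate 1 and 0.18 without knockdown1 replicate 3. LATS2 was lower in knockdown1 than in knockdown2 (-0.42, SE 0.15, limma adjusted p = 0.0326). That call was lost without knockdown1 replicate 1 (limma adjusted p = 0.107) or 2 (0.162), and without knockdown2 replicate 1 (0.0970), 2 (0.0937) or 3 (0.103).

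AJUBA is a LIM domain protein that inhibits LATS kinases. Its signal was 1184, 1094 and 1297 in knockdown1, 1186, 1211 and 1271 in knockdown2, and 1499.7, 1240.4 and 1831 in control. The knockdown arrays overlapped each other and the lowest control array. AJUBA did not pass the test in knockdown1 (-0.34, interval -0.63 to -0.05, limma adjusted p = 0.0665) or in knockdown2 (-0.30, interval -0.59 to -0.01, limma adjusted p = 0.122). With the values as deposited it was lower in both (-0.25 and -0.33, limma adjusted p = 0.00706 and 0.00128). Without control replicate 2 it was lower in both as well (limma adjusted p = 0.00622 and 0.0141), and without knockdown1 replicate 3 it was lower in knockdown1 (limma adjusted p = 0.0438). Without control replicate 3 the values shrank to -0.20 and -0.16 (limma adjusted p = 0.242 and 0.382). Between the knockdowns the difference was -0.04 (interval -0.33 to 0.25). None of its 3 other probe sets passed in either comparison with control. The brightest of these had signals of 614 to 695 in knockdown1, 642 to 727 in knockdown2 and 759 to 1014 in control. Both knockdowns thus lay below control there. The next probe set overlapped control in both knockdowns, and the dimmest in knockdown2 only.

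AXL is a receptor tyrosine kinase for the ligand GAS6. Its signal was 84.2, 87.9 and 123.2 in knockdown1, 393.2, 401.7 and 444.6 in knockdown2, and 139.98, 126.4 and 183.2 in control. The groups did not overlap: AXL was lowest in knockdown1 and highest in knockdown2. It fell in knockdown1 (log2 -0.60, SE 0.17, limma adjusted p = 0.00677). In knockdown2 it rose 2.77-fold (1.47, SE 0.17, limma adjusted p = 1.39e-07). The difference between the knockdowns was 4.21-fold (log2 -2.07, SE 0.17, limma adjusted p = 2.41e-10). Of the 9 members, AXL alone had called changes of opposite sign against control in the 2 knockdowns. These calls held in all 20 alternatives run.

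CRIM1 is a transmembrane protein that binds bone morphogenetic proteins. Its signal was 499.0, 500.9 and 561.4 in knockdown1, 694.6, 717.9 and 723.9 in knockdown2, and 728.0, 569.4 and 687.6 in control. Knockdown1 lay below both other groups, narrowly so for control replicate 2, and knockdown2 overlapped control. CRIM1 was lower in knockdown1 than in knockdown2 (-0.45, SE 0.14, limma adjusted p = 0.0153). That call was lost without knockdown1 replicate 1 (limma adjusted p = 0.0686) or 2 (0.0576), and without knockdown2 replicate 2 (0.0667) or 3 (0.0697). Against control it was -0.34 in knockdown1 (interval -0.63 to -0.05, limma adjusted p = 0.0610) and 0.11 in knockdown2 (interval -0.17 to 0.40). The knockdown1 value passed with the values as deposited (-0.25, limma adjusted p = 0.0157), without control replicate 2 (limma adjusted p = 0.00930) and without knockdown1 replicate 3 (0.0445). The 2 other CRIM1 probe sets above the filter gave -0.17 and -0.10 in knockdown1 against control, with overlapping arrays, and neither passed. Between the knockdowns they gave -0.47 and -0.39 (limma adjusted p = 0.0497 and 0.204).

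**Figure D3:**
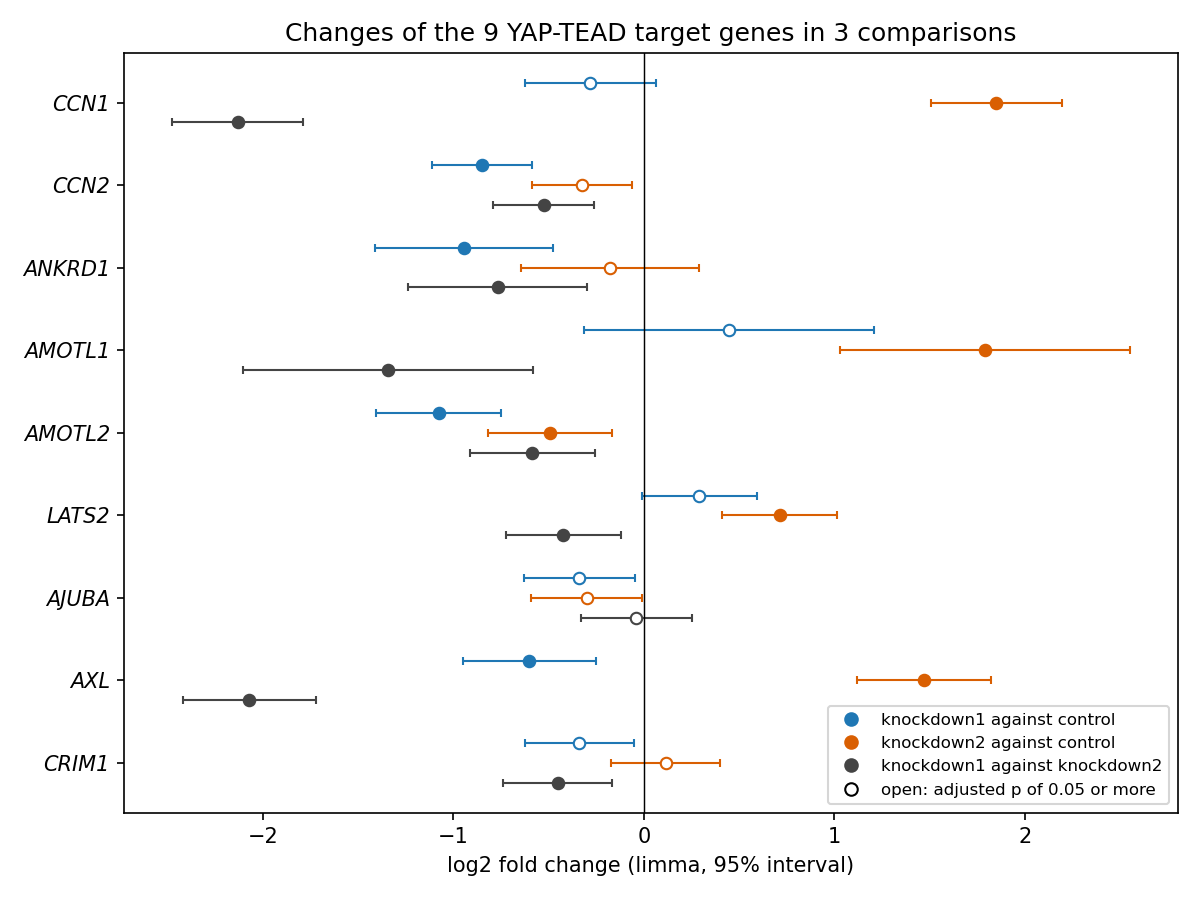
Log2 fold change of each gene with its 95% interval in the 3 comparisons; filled points have a limma adjusted p under 0.05. CCN1 and AXL have the widest separation between the knockdowns, at -2.13 and -2.07, and AJUBA the smallest, at -0.04.

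Across the 9 genes, 4 fell in knockdown1 (AMOTL2, ANKRD1, CCN2 and AXL) and none rose by limma. Each of these 4 falls rests on 1 probe set, with no other above the filter to check it. Of all tested genes, 33.3% were called in that comparison, 14.3% higher and 19.0% lower. At an unadjusted p under 0.05, 6 members were lower and 0 higher, where 41.8% of all genes passed, 18.8% higher and 23.0% lower. In knockdown2, 4 genes rose (CCN1, AMOTL1, AXL and LATS2) and 1 fell (AMOTL2), where 27.6% of all genes were called, 13.7% higher and 13.9% lower. At an unadjusted p under 0.05, 4 members were higher and 3 lower, where 37.1% of all genes passed, 18.7% higher and 18.4% lower. Between the knockdowns, 8 of the 9 were lower in knockdown1 and 0 higher, where 26.6% of all genes were called, 10.5% higher and 16.1% lower. The member counts were the same at an unadjusted p under 0.05, where 36.3% of all genes passed, 15.3% higher and 21.0% lower. The count of 8 fell to 6 without knockdown1 replicate 1 or 2 or any 1 knockdown2 array, and to 7 without knockdown1 replicate 3. The median log2 change of the 9 genes was -0.34 in knockdown1, 0.11 in knockdown2 and -0.59 between the knockdowns, against -0.01, 0.01 and -0.03 over all genes. In knockdown1 the arrays did not overlap with control for 5 members, all lower, where 39.8% of all genes did not overlap, 18.1% higher and 21.7% lower. In knockdown2 they did not overlap for 4 members that were higher and 2 that were lower, where 39.7% of all genes did not overlap, 19.9% higher and 19.8% lower. Between the knockdowns they did not overlap for 8 members, all lower, where 43.7% of all genes did not overlap, 18.9% higher and 24.8% lower.

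These calls depended on the scaling in part. The deposited arrays already shared a trimmed mean, and scaling to a common median replaced it. This scaling moved the median of all genes between knockdown1 and knockdown2 from 0.08 to -0.03. For AJUBA the SE was 0.14 after scaling and 0.07 with the values as deposited. Control replicate 3 had the largest scaling factor, 1.15, and was the highest control array for 7 of the 9 members. Over all genes, 1866 rose and 2485 fell in knockdown1, against 3105 and 2628 with the values as deposited. Between the knockdowns 1368 genes were higher and 2105 lower in knockdown1, against 2803 and 2104 as deposited. Under both treatments of the values 8 members were lower in knockdown1 than in knockdown2.

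Among the factors that act on these genes, YAP1 had signals of 890.7, 884.9 and 978.1 in knockdown1, 2028, 2166 and 1994 in knockdown2, and 769.4, 802.7 and 1036 in control. Knockdown2 was above all other arrays. YAP1 rose 2.39-fold in knockdown2 (log2 1.26, SE 0.14, limma adjusted p = 4.97e-08), its other 2 probe sets gave 1.00 and 1.24, and in knockdown1 the change was 0.09 (limma adjusted p = 0.665). WWTR1, which encodes TAZ, was -0.20 and -0.16 and passed in neither. Of 9 tested factors out of 10 listed, 2 rose and 2 fell in knockdown1 and 3 rose and 2 fell in knockdown2, where 33.3% and 27.6% of all genes were called. TEAD2 rose in both (1.31 and 1.77, limma adjusted p = 6.35e-06 and 8.06e-08), and TEAD3 fell in both (-0.77 and -0.62, limma adjusted p = 0.00209 and 0.0144). The knockdown2 call of TEAD3 was lost without control replicate 1 (limma adjusted p = 0.0620) or knockdown2 replicate 1 (0.0854). TEAD1 fell in knockdown1 (-0.93, limma adjusted p = 2.68e-05), but its 2 dimmer probe sets, at -0.53 and -0.28, did not pass. TEAD4 fell in knockdown2 (-0.90, limma adjusted p = 5.01e-05). VGLL4, a cofactor that competes with YAP for TEAD, rose in knockdown1 (0.80, limma adjusted p = 3.59e-04). VGLL3 was called higher in knockdown2 (1.44, limma adjusted p = 0.0106). Its signal was at most 11.7 in control, below the array median of 14.1, and 25.6 to 28.9 in knockdown2. It passed the filter only with knockdown2 arrays, so its higher signal there is a description. VGLL3 is among the 3 rises counted for knockdown2.

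Of 15 tested Hippo kinases and upstream regulators out of 17 listed, 5 rose and 2 fell in knockdown1, and 3 rose and 1 fell in knockdown2. The knockdown2 count is near the 27.6% of all genes called there, and the knockdown1 count stands beside 33.3%. MOB1A, a coactivator of LATS kinases, fell in knockdown1 (-1.17, limma adjusted p = 5.49e-08), while its paralogue MOB1B rose in both knockdowns (0.68 and 0.93, limma adjusted p = 0.00167 and 7.08e-05). NF2, the upstream regulator merlin, fell in knockdown1 (-0.62, limma adjusted p = 0.00357), a call lost when probe sets were averaged. The kinase MAP4K4 rose there (0.62, limma adjusted p = 8.53e-04). In knockdown2, LATS1 rose (0.51, limma adjusted p = 0.0333), a call lost without control replicate 1 (limma adjusted p = 0.196) or 2 (0.104), and without knockdown2 replicate 2 (0.141) or 3 (0.0927). WTIP, a LIM protein of the AJUBA family, fell (-1.83, limma adjusted p = 1.35e-04).

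Of 15 further genes reported as YAP-TEAD targets, 10 were tested. In knockdown1, 2 of them rose and 2 fell, while 5 rose and 1 fell in knockdown2. Of all genes, 33.3% and 27.6% were called, so the knockdown1 count is near the background. Their median was 0.16 in knockdown1 and 0.56 in knockdown2, against -0.01 and 0.01 over all genes. GADD45A, a stress-response gene, rose in both (0.89 and 1.01, limma adjusted p = 1.95e-05 and 5.22e-06), as did MYOF, the membrane repair protein myoferlin (0.74 and 1.19, limma adjusted p = 3.52e-04 and 7.24e-07). DOCK5, an exchange factor for Rac, fell in both (-0.87 and -0.77, limma adjusted p = 2.60e-04 and 0.00123); its knockdown2 call was lost when probe sets were averaged (limma adjusted p = 0.123).

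**Figure D4:**
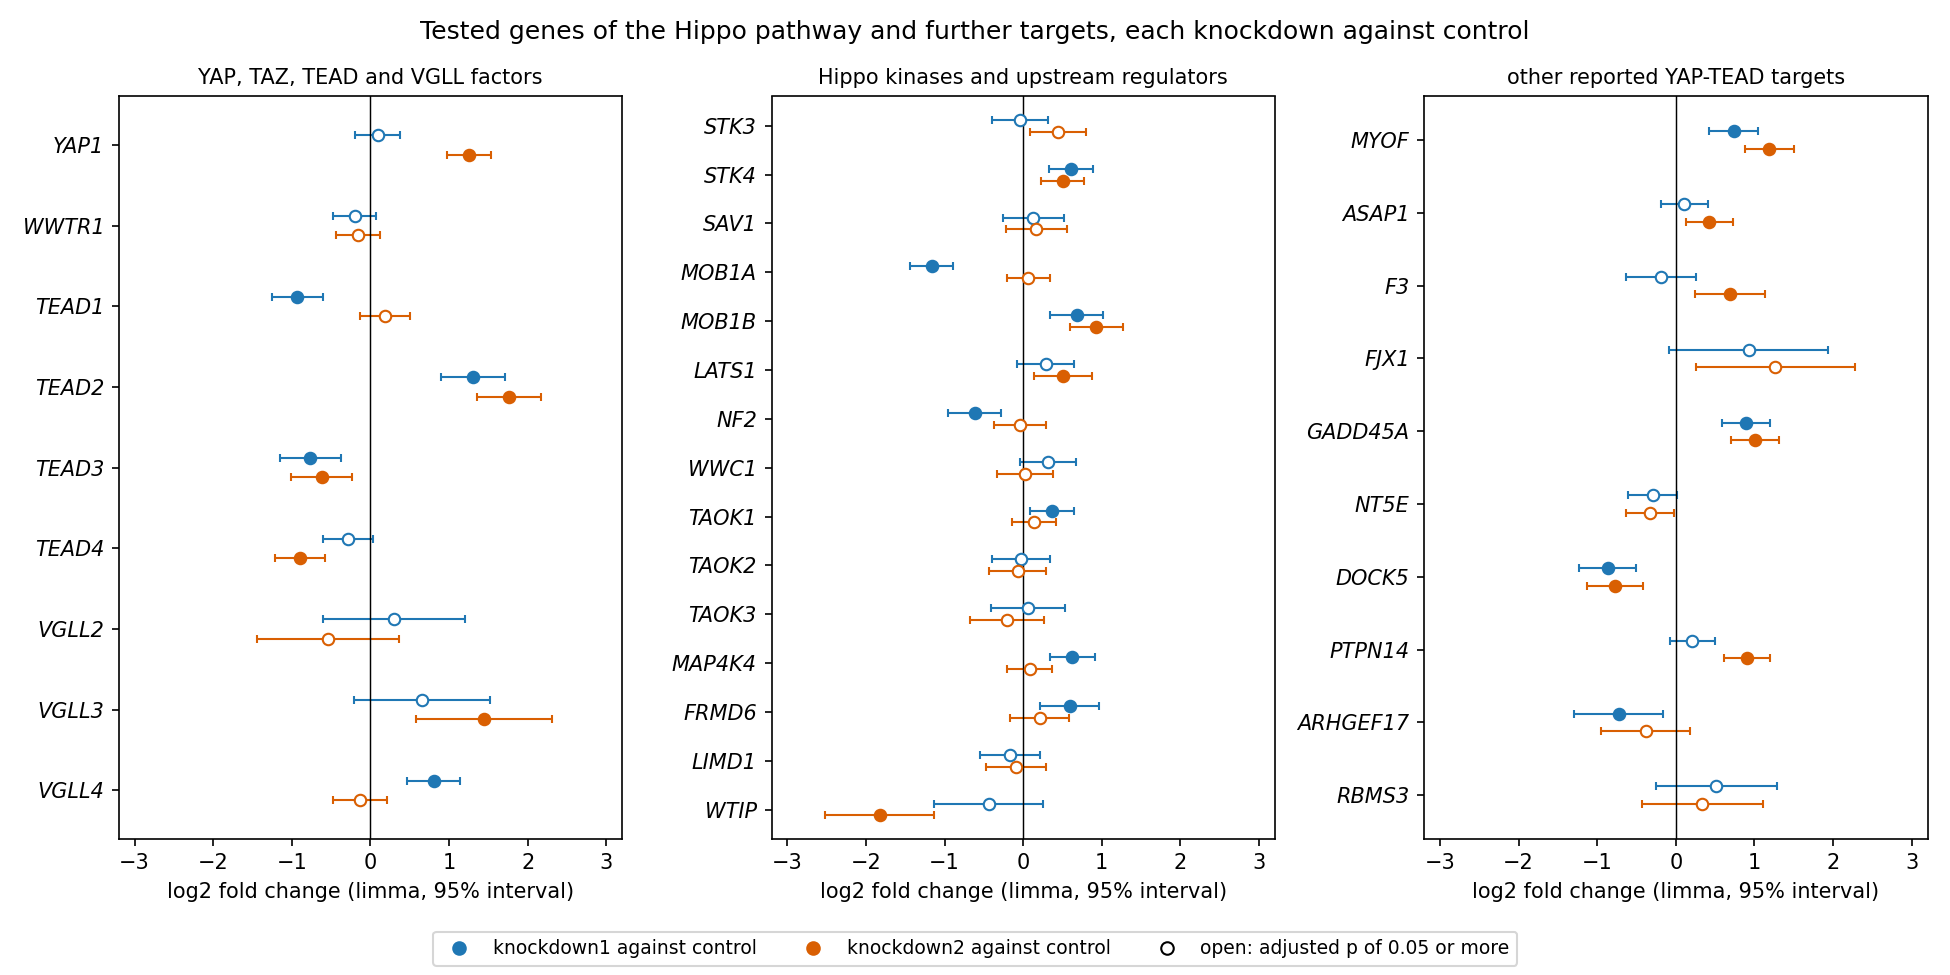
Log2 fold changes of each knockdown against control with 95% intervals for tested pathway factors, Hippo regulators and further targets; filled points have a limma adjusted p under 0.05. YAP1 is at 1.26 in knockdown2 and 0.09 in knockdown1, and MOB1A is at -1.17 in knockdown1.

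The 2 knockdowns also differed in cell cycle genes. All 15 listed fell in knockdown1, where 19.0% of all genes were called lower. Their median was -2.04 and their summed signals were 4458 to 5743, against 16268 to 21489 in control. The largest falls were those of MCM5, a subunit of the replicative helicase (-3.48, limma adjusted p = 5.93e-16), and RRM2, a subunit of ribonucleotide reductase (-3.33, limma adjusted p = 5.93e-16). In knockdown2, 6 of the 15 fell, led by MCM2 (-0.90) and MKI67 (-0.82), where 13.9% of all genes were called lower. The median of the 15 was -0.42 there, with sums of 14646 to 15773. Of 8 hepatocyte markers, 4 fell in knockdown1 and 3 in knockdown2, beside the same 19.0% and 13.9% of all genes. The largest falls were those of TF in knockdown1 (-0.91) and TTR in knockdown2 (-0.76), both plasma carrier proteins, and APOA1, the main protein of high-density lipoprotein, fell in both (-0.80 and -0.63). HNF4G was lower in knockdown1 than in knockdown2 by -0.72, which did not pass the test (SE 0.28, limma adjusted p = 0.0517). Over the 20 alternatives this difference ran from -0.90 to -0.22, and it stayed uncalled in 16 of them. The part of any of these in the difference of the members between the knockdowns was not tested.

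For 3 members the tested genes most like them over the 9 arrays were found by Pearson correlation of log2 values, as a description: the arrays form 3 groups, so any gene with the same group order scores highly. For CCN1 these were DUSP1 (0.994), RNPS1 (0.993) and RBL2 (0.991). DUSP1, a phosphatase that acts on MAP kinases, had mean signals of 289.6 in knockdown1, 785.4 in knockdown2 and 333.0 in control. For CCN2 they were LOC105379499 (0.995), ARF6 (0.993) and ERMP1 (0.992), and for ANKRD1 they were HECTD4 (0.964), FBXL17 (0.963) and GOLIM4 (0.953).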

How the data were processed

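The deposited values are linear intensities, 1 per probe set and array, which the authors made with MAS5, per the submitters' processing notes. The MAS5 version: not given in the sources used here. All deposited arrays already shared a trimmed mean of 100.0 (2% trimmed at each end). Their medians ran from 12.3 to 15.7, a ratio of 1.28, so each array, by a rule set for ratios over 1.2, was scaled to a common median of 14.1 (factors 0.898 to 1.15), which replaces that common mean. Probe sets with 1 gene symbol were kept where the signal was above the array median in at least 3 arrays (29651 probe sets), and the brightest represented each of 13056 genes. log2(signal + 1.41) went into limma 3.58.1 under R 4.3.3 (eBayes with trend, all 9 arrays in 1 fit, two-sided, Benjamini-Hochberg). The fit was tested on simulated data. An intensity has no count behind it, so the number of arrays limits the precision.

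All 9 members were named, and YAP1 and WWTR1, the coactivators, were named after their values were seen. For 1 gene of the further targets the result is not reported here. From each other list, the 2 largest rises and 2 largest falls among called genes were eligible, and the 3 most correlated genes for CCN1, CCN2 and ANKRD1. Members and lists were chosen with earlier results of these data known. Groups came from the sample titles. Alternatives changed the scaling, filter, pseudocount, probe set choice, variance model, samples in the fit and replicates.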

Additional observations from a re-analysis of the deposited data

Results flagged for a closer look

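For 8 of the 9 genes the 2 knockdowns differed by a test of the difference itself, limma over all genes, given here as knockdown1 minus knockdown2 on the log2 scale. The differences were -2.13 for CCN1, -2.07 for AXL, -1.34 for AMOTL1, -0.77 for ANKRD1, -0.59 for AMOTL2, -0.53 for CCN2, -0.45 for CRIM1 and -0.42 for LATS2. The adjusted p-values of limma ran from 1.06e-10 for CCN1 to 0.0326 for LATS2, and the arrays of the 2 groups did not overlap for any of the 8. Over all genes 26.6% were called in this comparison and 43.7% did not overlap. Leaving out 1 array gave 6 to 8 such members, and the calls of AMOTL1, ANKRD1, CRIM1 and LATS2 were each lost under at least 1 alternative. The labels give no difference between the 2 knockdowns.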

How the results depend on the processing

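Of the 17 calls among the 27 member values, 12 held under all 20 alternatives, and of the 10 values not called, 5 stayed so. CCN1 and AXL kept every call they had. In knockdown1 against control, genes called higher numbered 1866, and 3140 with arrays centred on the tested genes, 3108 with quantile normalization and 3105 as deposited; 1 member, LATS2, was then called higher under each. Between the knockdowns, genes called higher numbered 1368, and 2255, 2761 and 2803 under those settings. In knockdown2, centring gave 2805 genes called higher, and members called lower rose from 1 to 3 under centring, quantile normalization and as deposited. Leaving out 1 array gave 0 to 1 members called higher in knockdown1 and 0 to 3 called lower in knockdown2. AJUBA between the knockdowns turned to 0.0092, 0.0922 and 0.0793 under centring, quantile normalization and as deposited (-0.10 to 0.0197 with 1 array left out), and ANKRD1 in knockdown2 ran from -0.31 to 0.0295 with 1 array left out. The causes were not tested.

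Same-numbered arrays deviated together with correlations of -0.02 to 0.13, so the numbers were not taken to pair the arrays. With the replicate block, 3 members were called lower in knockdown2 and 4996 genes were called in knockdown1 against control, compared with 4351 without it. With 3 arrays per group and dim signals near the array median, as for AMOTL1, changes of small size could not be resolved.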

Other observations

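Genes of the serum response factor pathway, which shares targets with YAP, and relatives of the members were also measured. Of 12 tested factors and cytoskeletal targets out of 15 listed, 3 rose and 2 fell in knockdown1, and 3 rose and 1 fell in knockdown2. These counts are near the 33.3% and 27.6% of all genes called. TPM4, a tropomyosin, rose in both (1.21 and 1.69, limma adjusted p = 2.83e-07 and 1.29e-09), as did ACTA2, smooth muscle actin (1.05 and 0.98, limma adjusted p = 2.52e-06 and 1.01e-05). FHL2 and CALD1 fell in knockdown1 (-0.79 and -0.52, limma adjusted p = 1.03e-04 and 0.00743), and SRF fell in knockdown2 (-0.89, limma adjusted p = 2.13e-04).

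Of 8 relatives of the CCN and AXL families, CCN3, CCN4, CCN5 and CCN6 did not pass the filter on dim signals. MERTK, a receptor related to AXL, fell in both knockdowns (-0.85 and -0.74, limma adjusted p = 4.58e-05 and 3.47e-04). PROS1, a ligand of these receptors, fell in knockdown1 (-0.50, limma adjusted p = 0.0188), a call lost without control replicate 3 (0.0914) or knockdown1 replicate 2 (0.159). Among markers of other cell types, PECAM1 rose in both knockdowns (0.49 and 0.69), but averaged over its probe sets the knockdown1 value turned to -0.42 and neither call held. Of the 20 alternatives, 11 kept its knockdown1 call and 19 its knockdown2 call. DCN fell in knockdown1 (-1.19), a call lost under several alternatives. CD14 was above the array median in the 3 control arrays only, at 16.7 to 31.9, so it passed the filter through that group and its lower signal in both knockdowns is a description.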
